A study of Homo sapiens with 6 samples.

Results

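The 10 genes described here encode the cyclin-dependent kinase (CDK) inhibitors of the CIP/KIP family (CDKN1A, CDKN1B and CDKN1C), those of the INK4 family (CDKN2A, CDKN2B, CDKN2C and CDKN2D), and the 3 members of the retinoblastoma (RB) family (RB1, RBL1 and RBL2). They were chosen by name, and all 10 of them are among the 47470 genes of the count files. The cells sequenced were HEK293T, a line from human embryonic kidney with the adenovirus E1A and E1B genes and, added later, SV40 large T antigen. There were 3 libraries of untreated cells and 3 libraries of cells kept for 1 day in medium with valproic acid (VPA) at 1 mM, which inhibits histone deacetylases, so 6 in all. The untreated cells had the same medium without VPA, both groups are the same line, and nothing in the labels says whether the replicates were separate cultures, so that p-values measure only the spread between these libraries.

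CDK inhibitors set the brake on the cell cycle. INK4 proteins bind CDK4 and CDK6 and keep them from D-type cyclins, while CIP/KIP proteins bind cyclin-CDK complexes and restrain above all CDK2. Without active CDKs the RB proteins stay unphosphorylated, hold E2F transcription factors and keep the genes of S phase silent. Large T antigen and E1A both bind RB proteins and release E2F, so HEK293T cells cycle with much of this brake disabled. CDKN1A is a classic gene that deacetylase inhibitors induce in many cell lines.

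Counts on genes were between 18622267 and 18828495 per library. Of the labelled cell type's genes, VIM, KRT8, KRT18, PAX2 and LHX1 were counted in every library, while 5 markers of blood, endothelium and liver (PTPRC, CD3E, HBB, PECAM1 and ALB) had at most 12 counts each over the 6 libraries. The 12 counts are those of PTPRC and lie in VPA-treated libraries only. Large T antigen is a viral gene and is not among the genes counted. edgeR's quasi-likelihood test was run over the 15298 genes that passed its filter on low counts, which all 10 genes did, and p-values were adjusted over all of these by the Benjamini-Hochberg method. Values are normalized counts, which means counts scaled by TMM to the mean library, with the SD over n = 3 libraries. Fold changes are VPA-treated over untreated.

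At an adjusted p under 0.05, 4 of the 10 genes were higher in VPA-treated cells (CDKN1A, CDKN1C, CDKN2D and RBL1), 2 were lower (CDKN1B and CDKN2C), and 4 did not pass the test (CDKN2A, CDKN2B, RB1 and RBL2). Over all tested genes 32.9% were higher and 30.0% lower by the same rule, so the count of called members is close to the background in both directions. With the study's additional threshold of a log2 fold change of 1 in size, 1 gene of the 10 was up-regulated, CDKN1C, where 12.0% of all tested genes were, and none was down-regulated, where 0.503% were. The normalized counts of the groups did not overlap for 8 of the 10 genes, and did not for 65.8% of all tested genes. Library totals alone in place of TMM gave 7 higher and 2 lower members, and 6713 higher and 2372 lower genes over all in place of 5037 and 4591. That scaling moved the median log2 fold change of all genes by 0.13. It shifts every gene by nearly the same amount, so values relative to the median could not change (0.65 for CDKN1A and -0.41 for CDKN1B under both). With DESeq2, the study's tool, over 26353 genes, the values relative to its median did differ. They were 0.56 for CDKN1A and -0.50 for CDKN1B, and RB1 had 0.0090 in place of 0.11. Without a filter, edgeR over 26353 genes gave nearly the same values, at 0.56, -0.50 and 0.011. DESeq2 size factors in edgeR over 15298 genes gave 0.65, -0.41 and 0.11. The relative values thus moved with the set of genes behind the median. The log2 fold change of RB1 itself was 0.087 with DESeq2 and 0.11 with edgeR. In bulk RNA, a change in each cell and a change in the share of cells in a phase of the cycle cannot be told apart.

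**Figure D1:**
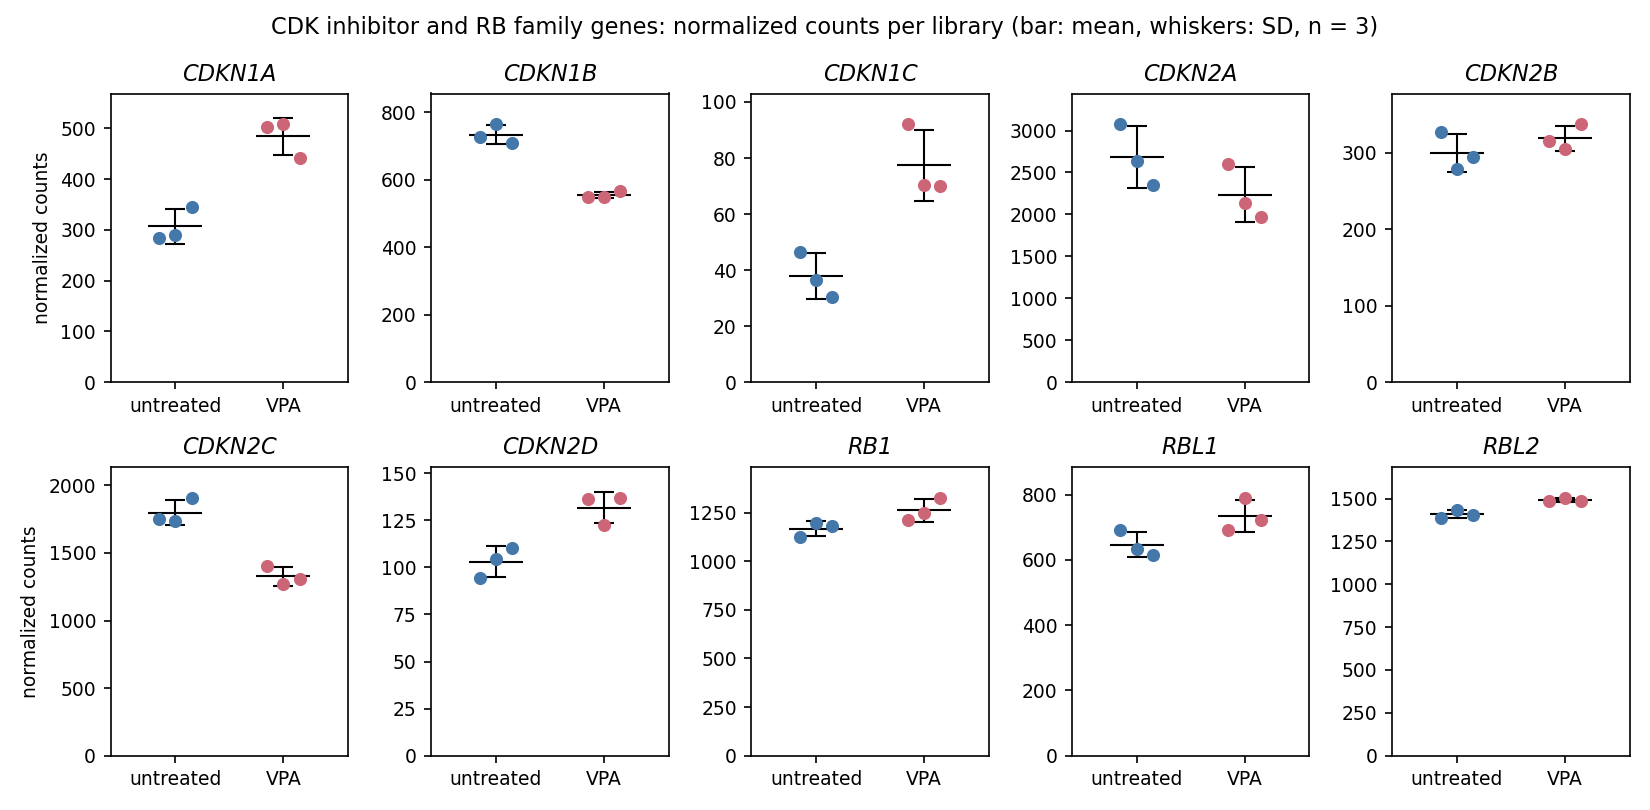
Normalized counts (linear axis from 0) of each of the 10 genes in the 3 untreated (blue) and 3 VPA-treated (red) libraries, where the bar is the mean and the whiskers are the SD. CDKN1A and CDKN1C lie higher and CDKN1B and CDKN2C lower in every VPA-treated library than in any untreated one, while the groups overlap for CDKN2A and CDKN2B.

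The CIP/KIP genes moved in opposite directions: CDKN1A and CDKN1C rose and CDKN1B fell. CDKN1A encodes p21, the inhibitor induced after DNA damage, and lies on chromosome 6 from 36676463 to 36687332 on the plus strand (RefSeq, GRCh38.p14, as for all genes here). It had 285, 290 and 345 normalized counts without VPA and 503, 508 and 442 with it. Every VPA-treated library was thus above every untreated one, and the means were 307 ± 33.6 and 484 ± 36.5 (SD, n = 3 each). The fitted log2 fold change was 0.66 with a standard error of 0.080 (adjusted p = 3.33e-07, edgeR), a rise of 1.58-fold that is below the study's threshold of fold change. With each library left out in turn it stayed between 0.60 and 0.75. Of the neighbouring genes within 20 kb that were counted, the non-coding transcripts DINOL and PANDAR, on the opposite strand, had 1 count each over the 6 libraries and RAB44 had 5, too few for a test.

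CDKN1C encodes p57, the product of an imprinted gene expressed mainly from the maternal copy, and spans bases 2883218 to 2885775 of chromosome 11 (minus strand). Its counts were the lowest of the 10 genes, at 46.6, 36.6 and 30.4 normalized counts in untreated and 92.0, 70.3 and 69.9 in VPA-treated cells. The groups did not overlap, but replicate 1 was the highest library of each group. The means of 37.9 ± 8.15 and 77.4 ± 12.6 (SD, n = 3 each) are 1.03 apart on the log2 scale by the fit, with a standard error of 0.18 (adjusted p = 3.14e-05, edgeR) and a 95% interval from 0.66 to 1.39. The depth behind it is 351 counts over the 6 libraries. The adjusted p held with any library left out, and the call at the study's thresholds did not. The log2 fold change was 0.995 without untreated replicate 2, 0.89 without untreated replicate 3 and 0.88 without VPA replicate 1, and 0.99 with a prior count of 2.

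CDKN1B encodes p27, the inhibitor that is abundant in resting cells and is degraded as cells enter S phase, and lies on chromosome 12 from 12717368 to 12722369 on the plus strand. It had 727, 764 and 710 normalized counts in untreated and 549, 550 and 566 in VPA-treated libraries. All of the VPA-treated values lay below all of the untreated ones, at 555 ± 9.41 with VPA, a narrow spread, against 733 ± 27.9 without (SD, n = 3 each). In the fit the log2 fold change was -0.40 with a standard error of 0.057 (adjusted p = 2.43e-06, edgeR), and 7.89% of the tested genes had a lower one. Its neighbours GPR19 and APOLD1 had log2 fold changes of 0.59 and -0.12 and did not pass the test (adjusted p = 0.091 and 0.58, edgeR).

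The ratio of 2 genes within a library does not depend on how libraries are scaled to each other. CDKN1A had 0.392, 0.380 and 0.487 counts for each count of CDKN1B without VPA and 0.916, 0.923 and 0.782 with it. The mean ratio therefore went from 0.419 ± 0.0587 to 0.874 ± 0.0797 (SD, n = 3 each), without overlap between the groups. The exact permutation test over libraries (two-sided) gave p = 0.1, the smallest that 3 libraries against 3 allow, so it cannot pass a threshold of 0.05, and its value adjusted over the 5 pairs tested was 0.167. For CDKN1C against CDKN1B the mean ratio was 0.0517 ± 0.0111 and 0.140 ± 0.0243 (SD, n = 3 each), again without overlap and with the same p from the exact permutation test.

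Levels of different genes were compared as normalized counts per kilobase of the MANE Select transcript (GENCODE 44). The counts are per gene and mix its isoforms, while the length is that of a single transcript. Levels, sums and shares per kilobase can therefore be off for a gene with isoforms of other lengths, such as CDKN2A or CDKN2C. The summed level of the CIP/KIP genes on that scale was 462, 475 and 475 in the untreated and 517, 508 and 483 in the VPA-treated libraries. The sums of 470.5 ± 7.16 and 503 ± 17.6 (SD, n = 3 each) lay close together without overlap, while the make-up shifted further. The share of CDKN1B was 64.7% ± 2.43 without and 45.9% ± 2.41 with VPA (SD, n = 3 each). CDKN1A held 30.8% ± 3.12 and 45.5% ± 2.03, and CDKN1C 4.55% ± 1.05 and 8.67% ± 1.19 (SD, n = 3 each). After VPA the levels of CDKN1A and CDKN1B per kilobase overlapped between libraries, at 209 to 240 and 228 to 235.

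**Figure D2:**
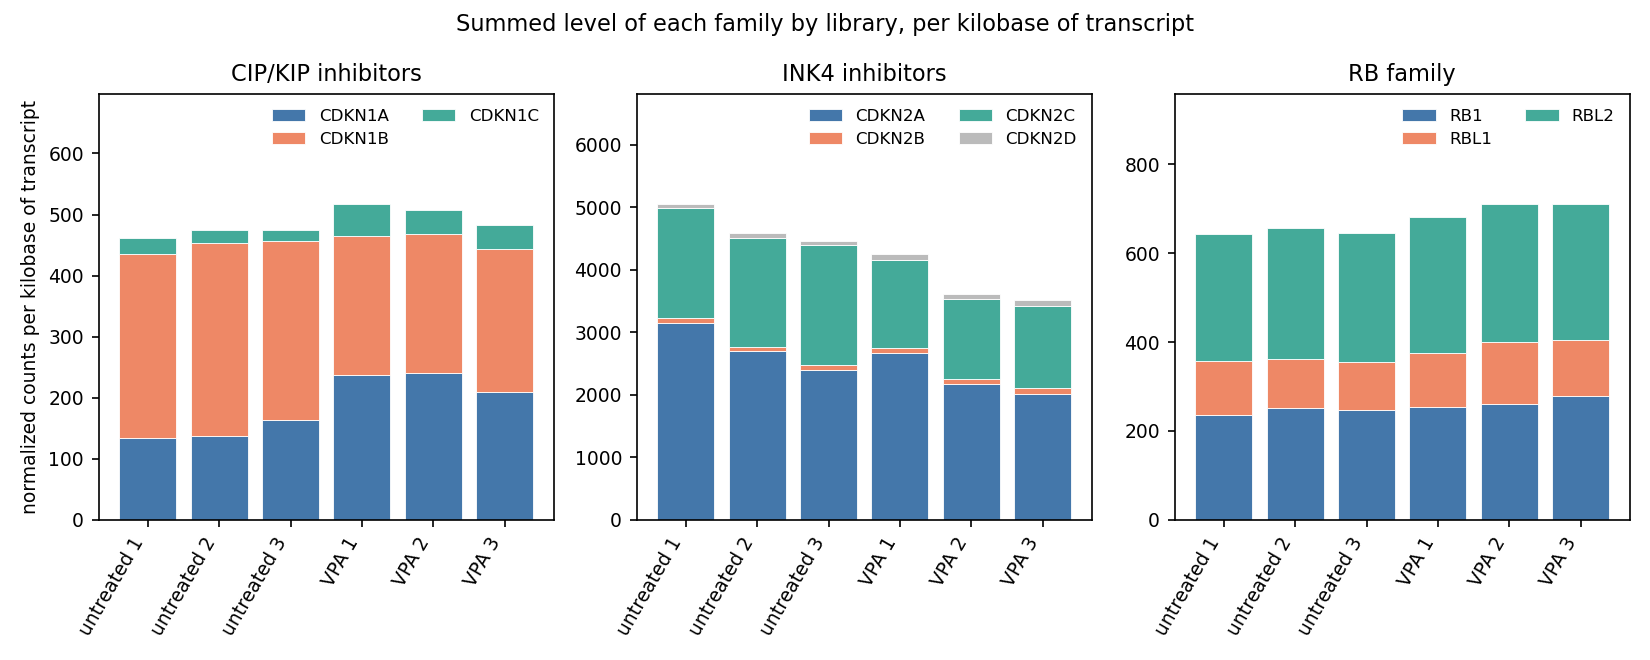
Stacked bars of normalized counts per kilobase of transcript (linear axis from 0) for the CIP/KIP, INK4 and RB families in each of the 6 libraries. The CIP/KIP bars lie between 462 and 517 throughout, with CDKN1A (blue) taking a larger and CDKN1B (orange) a smaller part after VPA, and the INK4 bars are set by CDKN2A and CDKN2C.

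The promoters of CDKN1A and CDKN1B are shown because these members of one family moved in opposite directions. Each is the stretch of 250 bases before the start of the MANE Select transcript in RefSeq (GRCh38.p14). It is read 5′ to 3′ on the strand of the gene. In the table used, 8 of the 10 genes had such a window, and CDKN1C and RB1 did not. Capitals mark the GC box GGGCGG on either strand, the motif bound by SP1 and related factors. CDKN1A, chr6:36678464-36678713, plus strand, rose and holds 4 GC boxes, of which the pair nearest the start shares a base. Its window lies within the span of the gene given above, and overlaps DINOL on the opposite strand. CDKN1B, chr12:12717118-12717367, plus strand, fell and holds 1 GC box and 2 copies of CCAAT, the motif of the factor NF-Y. Its window overlaps the start of GPR19, which ends at base 12717246 on the opposite strand.
CDKN1A: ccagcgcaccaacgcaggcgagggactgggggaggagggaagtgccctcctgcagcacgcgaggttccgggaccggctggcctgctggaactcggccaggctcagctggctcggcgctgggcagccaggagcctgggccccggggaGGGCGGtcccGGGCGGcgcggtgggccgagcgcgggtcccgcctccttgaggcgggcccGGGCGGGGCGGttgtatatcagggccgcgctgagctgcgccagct
CDKN1B: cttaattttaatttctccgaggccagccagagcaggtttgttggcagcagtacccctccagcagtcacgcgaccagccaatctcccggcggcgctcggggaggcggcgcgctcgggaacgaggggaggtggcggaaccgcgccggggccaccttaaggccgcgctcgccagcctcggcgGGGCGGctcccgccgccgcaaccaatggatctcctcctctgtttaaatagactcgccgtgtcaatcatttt
Among all 35116 windows of this length in the table, 42.6% hold at least 1 GC box, 7.63% hold 4 or more and 32.0% hold a CCAAT box on either strand. A match of letters does not say that a factor was bound, and a link between motifs and the direction of change was not tested.

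The INK4 family was dominated by CDKN2A and CDKN2C, and only CDKN2C and CDKN2D of its 4 genes passed the test, in opposite directions. CDKN2C encodes p18 and lies on chromosome 1 from 50960745 to 50974634 on the plus strand. It had 1752, 1739 and 1907 normalized counts in untreated and 1403, 1271 and 1306 in VPA-treated libraries. The gap between the groups was wider than the spread within either, with means of 1799 ± 93.9 and 1326 ± 68.5 (SD, n = 3 each). The log2 fold change of -0.44 had a standard error of 0.050 (adjusted p = 1.43e-07, edgeR), the smallest adjusted p of the 10 genes, and 6.23% of tested genes had a lower log2 fold change. Its neighbour on the opposite strand, FAF1, had a log2 fold change of 0.045 (adjusted p = 0.37, edgeR), from 1994 ± 49.9 to 2057 ± 25.2 (SD, n = 3 each), but passed with upper quartile scaling (0.11, adjusted p = 0.031) and library totals alone (0.18, adjusted p = 0.00096).

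CDKN2D encodes p19 and spans bases 10566460 to 10568979 of chromosome 19 (minus strand). It rose from 94.2, 105 and 110 normalized counts in untreated to 136, 122 and 137 in VPA-treated libraries. The groups did not overlap, and the means were 103 ± 8.13 and 132 ± 8.18 (SD, n = 3 each). Its log2 fold change was 0.36 with a standard error of 0.11 (adjusted p = 0.0091, edgeR) on 708 counts over the 6 libraries, and DESeq2 gave 0.33 with an adjusted p of 0.10. Of the genes next to it, KRI1 and ATG4D fell with log2 fold changes of -0.44 and -0.26, and AP1M2 rose with 2.22 on 44 counts in all (adjusted p = 1.35e-08, 0.0021 and 0.00022, edgeR). With library totals alone ATG4D was at -0.13 and did not pass (adjusted p = 0.12, edgeR). Within a library CDKN2C had 18.6, 16.6 and 17.3 times the counts of CDKN2D without VPA and 10.3, 10.4 and 9.54 times with it. That ratio fell from 17.5 ± 1.01 to 10.1 ± 0.469 (SD, n = 3 each) with no overlap (p = 0.1, again the least possible, in the two-sided exact permutation test).

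The promoter window of CDKN2C follows, with its GC box in capitals, as that of the member of smallest adjusted p. CDKN2C, chr1:50969995-50970244, plus strand, has 1 GC box and 1 copy of CCAAT in a window of 48.8% G and C. The window of CDKN2D, chr19:10568980-10569229, minus strand, holds 2 GC boxes, 1 of them on the other strand, 1 copy of CCAAT, and 67.6% G and C.
CDKN2C: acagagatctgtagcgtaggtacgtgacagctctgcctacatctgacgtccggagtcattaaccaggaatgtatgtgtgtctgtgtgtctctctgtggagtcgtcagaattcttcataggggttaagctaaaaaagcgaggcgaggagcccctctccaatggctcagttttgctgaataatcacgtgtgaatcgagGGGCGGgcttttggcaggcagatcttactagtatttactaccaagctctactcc
The MANE Select transcript of CDKN2C starts within the gene, so the window lies inside the span of its longer transcripts.

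CDKN2A and CDKN2B lie next to each other on chromosome 9 on the minus strand, from 21967752 to 21995324 and from 22002903 to 22009313. CDKN2A encodes p16 and, from a separate first exon and another reading frame, the tumour suppressor ARF, and a count per gene does not separate them. It had 3073, 2636 and 2345 normalized counts in untreated and 2604, 2131 and 1972 in VPA-treated libraries. The groups overlapped, and in both the values fell from replicate 1 to replicate 3. With 2685 ± 366 and 2236 ± 328 (SD, n = 3 each) CDKN2A had a coefficient of variation of 13.6% and 14.7% although it was the most counted of the 10 genes, with 14709 counts. A log2 fold change of -0.26 had a standard error of 0.14 and a 95% interval from -0.62 to 0.091 (adjusted p = 0.16, edgeR). It passed without either of 2 libraries, at -0.36 without untreated replicate 3 and -0.39 without VPA replicate 1 (adjusted p = 0.033 and 0.014, edgeR). With a block for the replicate number it also passed, at -0.26 (adjusted p = 6.43e-10, edgeR), though the numbers were not taken to pair the samples.

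CDKN2B encodes p15, the inhibitor that TGF-beta induces. It had 327, 278 and 295 normalized counts in untreated and 315, 304 and 337 in VPA-treated libraries, which overlap. The log2 fold change was 0.087 with a 95% interval from -0.077 to 0.25 (adjusted p = 0.35, edgeR), and with library totals alone it was 0.22 (adjusted p = 0.026, edgeR). The antisense transcript CDKN2B-AS1, also called ANRIL, overlaps both genes on the opposite strand and recruits Polycomb proteins to them. Its log2 fold change of -0.30, from 79.6 ± 15.0 to 64.6 ± 14.3 (SD, n = 3 each), did not pass the test (adjusted p = 0.13, edgeR). LOC124902130, a non-coding gene within CDKN2A, had -0.042 (adjusted p = 0.74, edgeR), and this turned positive with upper quartile scaling and with library totals. The libraries were strand-specific, but the strand setting of the counting is not given in the sources used here.

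Per kilobase, CDKN2A held 58.2% ± 4.28 of the summed INK4 level in untreated and 60.1% ± 2.62 in VPA-treated cells, and CDKN2C 38.6% ± 4.06 and 35.3% ± 2.09 (SD, n = 3 each). CDKN2B and CDKN2D together were a minor part, at 1.66% and 1.55% in untreated and 2.20% and 2.45% in VPA-treated cells. Their levels per kilobase overlapped between libraries in both conditions, with 72.3 to 84.9 for CDKN2B and 66.1 to 77.3 for CDKN2D in untreated cells.

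**Figure D3:**
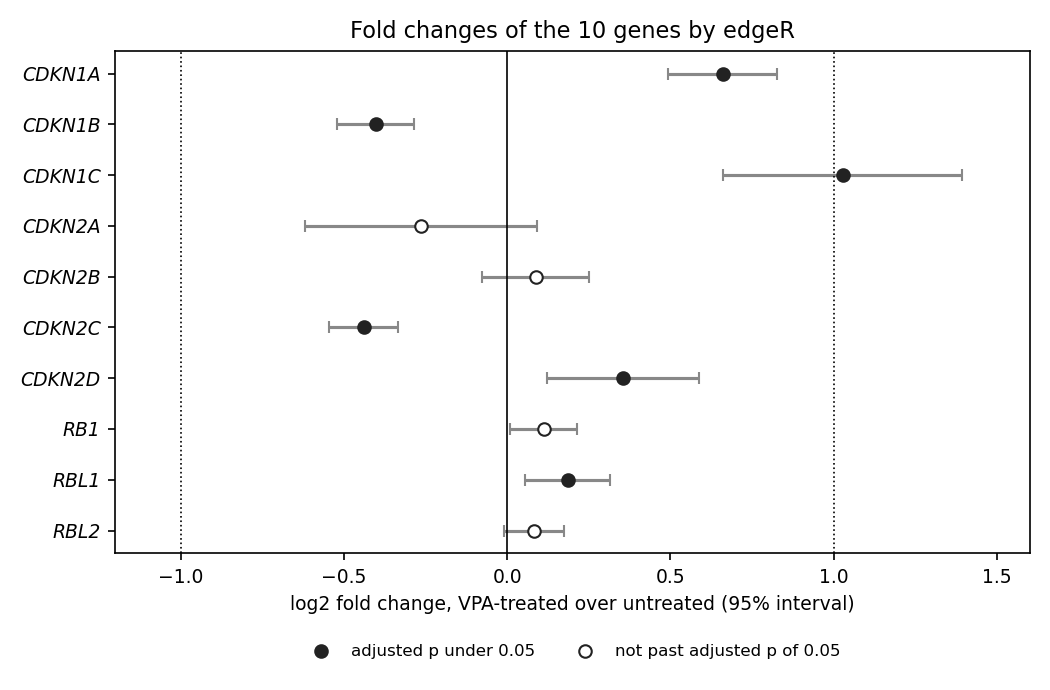
Log2 fold changes of the 10 genes (VPA-treated over untreated, edgeR, 3 libraries per group) with 95% intervals. Filled points passed an adjusted p of 0.05, open points did not, and dotted lines mark the log2 fold change of 1 in size, which only CDKN1C reached, at 1.03.

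The 3 RB family genes all had small positive log2 fold changes, and RBL1 alone passed the test, whereas all 3 did with upper quartile scaling or library totals alone. RBL1 encodes p107, an E2F-regulated family member of cycling cells, and spans bases 36996349 to 37095997 of chromosome 20 (minus strand). It had 690, 634 and 615 normalized counts in untreated and 693, 790 and 723 in VPA-treated libraries. The lowest VPA-treated library was barely above the highest untreated one. The log2 fold change of 0.18 had a standard error of 0.062 (adjusted p = 0.014, edgeR). It was not past the threshold without untreated replicate 2 (0.16, adjusted p = 0.066), without untreated replicate 3 (0.14, adjusted p = 0.076) or without VPA replicate 2 (0.13, adjusted p = 0.12), nor with DESeq2 (0.16, adjusted p = 0.10). The next gene, MROH8, had a log2 fold change of -0.40 and did not pass the test (adjusted p = 0.18, edgeR).

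RB1 encodes the retinoblastoma protein and lies on chromosome 13 from 48303751 to 48481890 on the plus strand. It had 1123, 1198 and 1182 normalized counts in untreated and 1211, 1247 and 1325 in VPA-treated libraries, which do not overlap. The log2 fold change was 0.11 with a standard error of 0.050 (adjusted p = 0.057, edgeR), and without VPA replicate 1 it was 0.14 (adjusted p = 0.030, edgeR). The adjusted p was 0.0046 with upper quartile scaling and 0.025 with at least 10 counts in every library. RCBTB2, the next gene on the opposite strand, was lower by a log2 fold change of -0.92 (adjusted p = 3.96e-06, edgeR). It had 144 ± 15.2 without and 76.5 ± 14.8 with VPA (SD, n = 3 each). LPAR6, which lies within RB1 on the opposite strand, had 35 counts in all and was not tested.

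RBL2 encodes p130, the family member of resting cells and a part of the DREAM repressor complex, and lies on chromosome 16 from 53434471 to 53491648 on the plus strand. It was the most even of the 10 genes, at 1388, 1432 and 1405 normalized counts in untreated and 1484, 1504 and 1485 in VPA-treated libraries. The groups did not overlap, but the log2 fold change was 0.082 with a standard error of 0.044 (adjusted p = 0.11, edgeR) and a 95% interval from -0.0092 to 0.17. With upper quartile scaling it was 0.15 (adjusted p = 0.0066, edgeR) and with at least 10 counts in every library 0.10 (adjusted p = 0.042, edgeR). AKTIP, which overlaps its end on the opposite strand, had a log2 fold change of -0.14 (adjusted p = 0.17, edgeR).

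The shares of the RB family overlapped between the groups for each of its 3 genes. RBL2 had 44.7% ± 0.210 and 43.8% ± 0.935 of the summed level per kilobase, RB1 37.7% ± 0.965 and 37.7% ± 1.20, and RBL1 17.5% ± 1.17 and 18.4% ± 0.969 in untreated and VPA-treated cells (SD, n = 3 each). The ratio of RBL2 to RBL1 counts was 2.18 ± 0.151 and 2.03 ± 0.121 (SD, n = 3 each; exact permutation test, two-sided, p = 0.3), and that of RB1 to RBL1 was 1.81 ± 0.161 and 1.72 ± 0.129 (SD, n = 3 each; exact permutation test, two-sided, p = 0.5). The groups of both ratios overlapped.

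The promoter window of RBL1, chr20:37095998-37096247 on the minus strand, is shown with E2F motifs in capitals. The search was for TTTCGCGC, TTTGGCGC, TTTCCCGC and TTTGCCGC on either strand.
RBL1: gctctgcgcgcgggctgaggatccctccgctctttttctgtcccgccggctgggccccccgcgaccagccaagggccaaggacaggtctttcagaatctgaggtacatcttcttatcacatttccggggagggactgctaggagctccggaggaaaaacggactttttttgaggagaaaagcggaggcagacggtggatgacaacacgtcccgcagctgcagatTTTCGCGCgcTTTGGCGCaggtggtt
It holds 2 of them side by side near the start, where 2.79% of all windows hold at least 1 and 0.122% hold 2 or more. The windows of the other members that had one held none, and CDKN1C and RB1 had no window to search.

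By level per kilobase in untreated cells, the order of the 10 genes was CDKN2A, CDKN2C, CDKN1B, RBL2, RB1, CDKN1A, RBL1, CDKN2B, CDKN2D and CDKN1C, with means from 2745 down to 21.4 normalized counts per kilobase. In this order the ranges of CDKN1B and RBL2 (294 to 317 and 286 to 295) and those of CDKN2B and CDKN2D overlapped, and the other neighbours were apart in all 3 libraries. In VPA-treated cells CDKN1B, at 230 ± 3.90, came after RBL2 at 307 ± 2.26 and RB1 at 264 ± 12.2 (SD, n = 3 each). CDKN1A rose to 229 ± 17.2 and CDKN1C, still the lowest, to 43.7 ± 7.13 (SD, n = 3 each). The limit by isoform given above for levels per kilobase holds for this order too.

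Genes with the most similar profile over the 6 libraries were found by the distance between centred log2 normalized counts, over the 12196 tested genes whose mean was 50 or more. Nearest to CDKN2C were MYO19 and NRDE2, with log2 fold changes of -0.43 and -0.45 against its own -0.44. Nearest to CDKN1A were PLCG2, at 408 ± 40.5 and 650.0 ± 16.9 normalized counts (SD, n = 3 each), and the pseudogene FAM86C2P, whose reads may be shared with near-identical copies. Nearest to CDKN1B were THAP1 and CENPH, with log2 fold changes of -0.38 and -0.40. The 6 libraries fall into 2 groups, so that any gene with a like fold change and a small spread comes close.

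Genes that act with the inhibitors were read from 9 lists with 89 genes, of which 87 were tested. In all, 12 were higher and 58 lower in VPA-treated cells at an adjusted p under 0.05 (edgeR), and with library totals alone 19 were higher and 37 lower. The shares over all tested genes, to which these counts compare, were 32.9% higher and 30.0% lower, and with library totals alone 6713 and 2372 of the 15298 genes. The lists were chosen with earlier results of these data known. The median log2 fold change over them was -0.22, against 0.0058 over all tested genes.

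The partners that the inhibitors bind moved both ways. Of 11 cyclins and CDKs of G1 and S phase, 3 rose and 6 fell, with a median log2 fold change of -0.18, and with library totals alone 5 rose and 5 fell. Among the D-type cyclins, which INK4 proteins keep from CDK4 and CDK6, CCND2 rose from 562 ± 32.7 to 899 ± 79.1 and CCND1 from 1246 ± 57.3 to 1527 ± 19.7 normalized counts (SD, n = 3 each), log2 fold changes of 0.68 and 0.29 (adjusted p = 1.17e-08 and 1.44e-05, edgeR). CCND3, the other D-type cyclin, had 0.10 and CDK6 0.11, and neither passed (adjusted p = 0.069 and 0.057, edgeR), although both did with upper quartile scaling (0.17 each), library totals alone (0.23 and 0.24), a minimum of 10 counts in every library (0.13 each) and without untreated replicate 1 (0.13 and 0.14). CDK4 fell with -0.29 and CDK2 with -0.18 (adjusted p = 2.81e-06 and 0.00078, edgeR), and with library totals alone CDK4 had -0.16 (adjusted p = 0.0020, edgeR) while CDK2 had -0.051 and did not pass (adjusted p = 0.30, edgeR). CCNA2, the S phase cyclin, fell by a log2 fold change of -0.60, with 3392 ± 170.0 before and 2244 ± 71.4 after VPA (SD, n = 3 each), and CDC25A, the phosphatase that activates CDK2, had -0.46 (adjusted p = 1.87e-10 and 1.33e-09, edgeR). CCNE2 and CCNE1, the E-type cyclins that p21 and p27 restrain, fell with log2 fold changes of -0.64 and -0.35 (adjusted p = 9.73e-08 and 4.29e-06, edgeR). CCNA1, a germline cyclin, rose with a log2 fold change of 2.77 on 95 counts in all (adjusted p = 4.58e-07, edgeR). CCND1, CCND3, CCNE1, CCNE2, CDK2, CDK4 and CDK6 were named after their values were seen.

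Of 9 mitotic cyclins and regulators of CDK1, 1 rose and 7 fell (2 and 4 with library totals alone), with a median log2 fold change of -0.29. CCNB1 and CKS2 fell with -0.30 and -0.29, and CDKN3, a phosphatase that removes the activating phosphate of CDK2 and CDK1, rose with 0.27 (adjusted p = 7.19e-06, 1.34e-05 and 0.00059, edgeR). Of the 3 subunits of the CDK-activating kinase, CCNH rose with 0.20, MNAT1 fell with -0.21 and CDK7 had a log2 fold change of -0.15 and did not pass the test (adjusted p = 0.0021, 0.0042 and 0.063, edgeR), and with library totals alone 1 rose and none fell.

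Downstream of the RB proteins nearly all calls were lower. All 15 tested E2F target genes of S phase fell, with log2 fold changes from -0.54 to -0.17 and a median of -0.32, led by TYMS and MCM7 (adjusted p = 1.89e-09 and 2.27e-09, edgeR). None reached the log2 fold change of 1 in size, and 30.0% of all tested genes were lower. With library totals alone 12 of the 15 were lower and none higher. Of 10 E2F and DP factors, 2 rose (TFDP2 and E2F2) and 7 fell (2 and 4 with library totals alone), among them TFDP1 with -0.38 and E2F4, a partner of RBL1 and RBL2, with -0.38 (adjusted p = 9.15e-08 and 1.41e-06, edgeR). E2F2, with 0.16 (adjusted p = 0.017, edgeR), did not pass with DESeq2 (0.14, adjusted p = 0.13) or without untreated replicate 2 (0.15), untreated replicate 3 (0.12) or VPA replicate 1 (0.14). Of the 6 genes for the MuvB core, which RBL1 or RBL2 turns into the DREAM repressor, and its activator partner MYBL2, 5 fell and none rose (4 and 1 with library totals alone), with RBBP4 at -0.32 and MYBL2 at -0.26 (adjusted p = 2.02e-06 and 2.06e-05, edgeR).

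**Figure D4:**
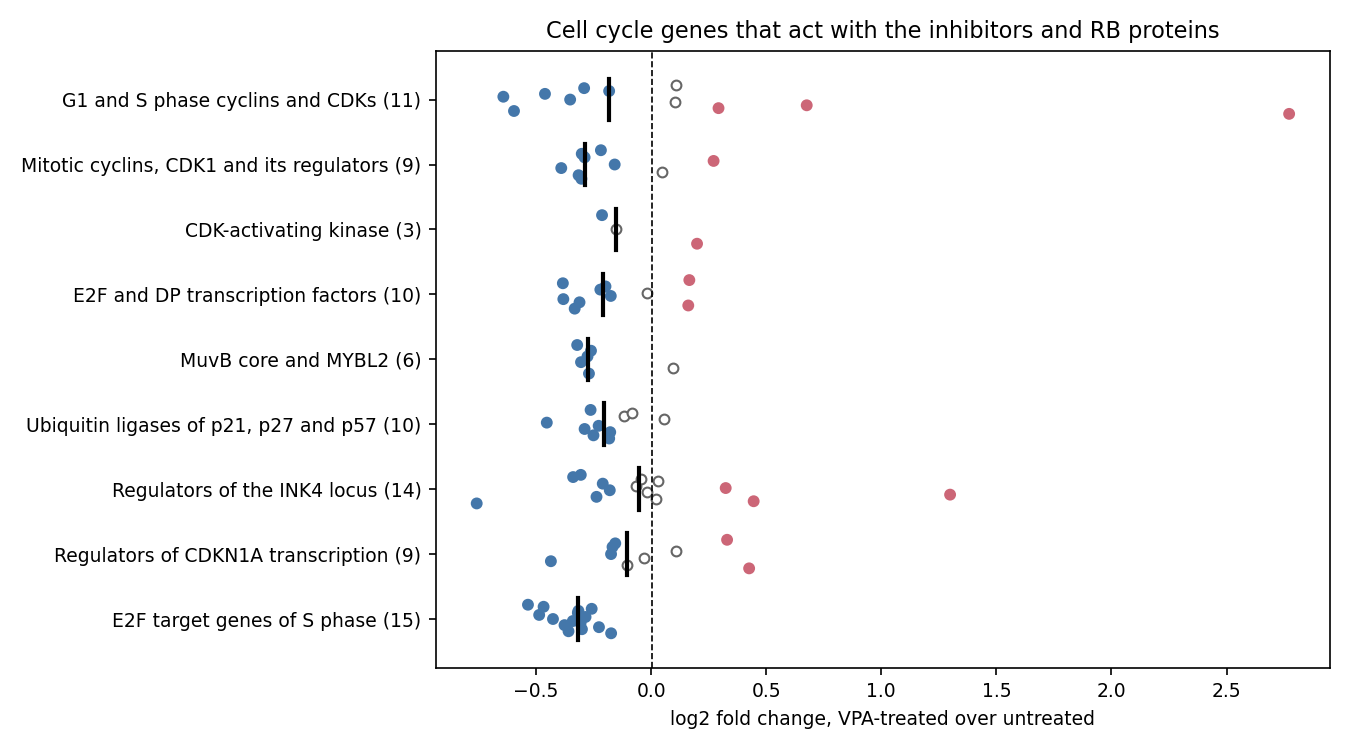
Log2 fold changes (VPA-treated over untreated) of the tested genes of each list, with the number tested in brackets. Red points rose and blue points fell at an adjusted p of 0.05, open points did not pass, black bars are list medians, and the dashed line is the median of all tested genes, 0.0058. The E2F target genes of S phase lie wholly below 0.

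Of 10 tested subunits of the ubiquitin ligases that degrade p21, p27 and p57, none rose and 7 fell, with a median of -0.21. RBX1 fell with a log2 fold change of -0.45 and DDB1 with -0.29 (adjusted p = 4.85e-08 and 4.39e-06, edgeR), while SKP2, the subunit that recognises p27, had -0.084 and did not pass (adjusted p = 0.13, edgeR). With library totals alone 1 rose and 4 fell. CUL4B, on chromosome X, is listed at 0 in all 6 libraries, as is POLA1 among the S phase genes. Whether this comes from the counting or its annotation was not tested, so neither gene can be called silent.

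Of 9 regulators of CDKN1A transcription, 2 rose and 4 fell, whereas 3 rose and 1 fell with library totals alone. MDM2, which encodes a ubiquitin ligase, fell with a log2 fold change of -0.44, and SP1, the factor that binds GC boxes, with -0.17 (adjusted p = 1.35e-07 and 0.0010, edgeR). ZBTB17, which encodes the CDKN1A activator MIZ1, and KLF4 rose with 0.33 and 0.43 (adjusted p = 0.00027 and 0.0018, edgeR). With library totals alone SP1 had -0.036 and did not pass, and the median of the list, -0.10, was 0.027.

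Of 14 regulators of the INK4 locus, 3 rose and 6 fell, whereas 4 rose and 3 fell with library totals alone. ETS1, an activator of CDKN2A, at 158 ± 3.18 without and 389 ± 23.9 with VPA (SD, n = 3 each), rose by 1.30 on the log2 scale, and ID1, which opposes ETS factors there, rose with 0.32 (adjusted p = 1.15e-11 and 4.69e-05, edgeR). TBX3 and TBX2, repressors of the locus, fell with -0.31 and -0.34 (adjusted p = 1.19e-05 and 0.00018, edgeR). The median of the list, -0.053, was 0.012 with upper quartile scaling and 0.078 with library totals alone.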

How the data were processed

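RNA-seq of 3 untreated and 3 VPA-treated libraries of HEK293T cells was analysed. After filtering in SOAPnuke and alignment to hg38 by STAR (2.7.10b), the authors deposited raw counts per gene from htseq-count (HTSeq 2.0.1), without normalization. Both versions are from the submitters' processing notes, and the gene annotation is not given in the sources used here. Lines of the counting that name no gene were left out: reads off genes were 6.80% to 7.69% of those listed, ambiguous ones 1.97% to 2.10% and those without a unique place 2.81% to 2.92%.

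The test was edgeR's (4.0.16, R 4.3.3) robust quasi-likelihood fit on condition alone, with TMM, filterByExpr at a minimum of 10, Benjamini-Hochberg adjustment and prior count 0.125, and the code was tested on simulated data. Standard errors are the size of the log2 fold change over the square root of F. Totals of 18622267 to 18828495 counts limit the precision of genes with few counts. Alternatives were DESeq2 1.42.0, other scalings, filters and prior counts, a block for the replicate number, and the fits without each library in turn. Libraries within a group differed by more than sampling noise (chi-square per gene 1.62 to 4.80), and each was used as 1 replicate. That spread does not tell whether they were separate cultures. Gene coordinates and promoters are from RefSeq on GRCh38.p14, and the 8 windows were equal to hg38.

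The members and lists were chosen with earlier results of these data known. Named were the 10 members, per list the 2 genes of smallest adjusted p in each direction, counted genes within 20 kb of a member, and the 2 genes of nearest profile for the 3 members of smallest adjusted p. Genes beyond this rule are said to be so, except where a list's unpassed member or a gene listed at 0 is given. Some items are not reported here.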

Additional observations from a re-analysis of the deposited data

How the results depend on the processing

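CDKN1A, CDKN1B, CDKN1C and CDKN2C kept their direction and their side of the threshold in all 14 alternatives, and no member reversed. With each library left out in turn, log2 fold changes ranged from -0.43 to -0.38 for CDKN1B, -0.48 to -0.40 for CDKN2C and 0.88 to 1.20 for CDKN1C. Against 4 members higher, DESeq2 gave 2 and library totals 7, and the range with a library left out was 3 to 5. Against 1 member past the study's thresholds there were 0 with a prior count of 2, and 0 to 1 with a library left out. DESeq2's losses were CDKN2D and RBL1. For the lists, library totals gave 19 higher and 37 lower genes against 12 and 58, and a minimum of 10 counts in every library left 1 past the study's thresholds against 2, since CCNA1 had fewer. The 3 genes that reversed had passed no test: APOLD1 was at 0.010 and SKP2 at 0.048 with library totals, and LOC124902130 at 0.024 with upper quartile scaling, 0.090 with library totals and between -0.13 and 0.018 with a library left out (0.018 without VPA replicate 1). GPR19 (0.82) and CDKN2B-AS1 (-0.42) passed without untreated replicate 3, AKTIP (-0.23) without VPA replicate 3, SKP2 (-0.14) without untreated replicate 3, and CDK7 without untreated replicate 1 (-0.22) or VPA replicate 3 (-0.20). CDK7 also passed with DESeq2 size factors in edgeR (-0.17), without a filter (-0.18) and with the replicate block (-0.15). GPR19 also passed with library totals (0.72), and SKP2 with the replicate block (-0.083). Causes beyond the construction of an alternative were not tested.

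The labels number the replicates of both groups. Same-numbered libraries deviated together with correlations over genes of 0.126, 0.018 and 0.0708, and untreated replicate 2 correlated best with VPA replicate 3, so the numbers were not taken to pair the samples. With the replicate block 6 members were higher and 3 lower, with CDKN2A at -0.26 (adjusted p = 6.43e-10, edgeR), RB1 at 0.11 (adjusted p = 0.012) and RBL2 at 0.082 (adjusted p = 0.044) added, and 15 list genes were higher and 61 lower.

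Protein levels, transcript isoforms and the phase of the cycle were not measured. One dose and one time were sampled, so no course can be given. Depth limits CDKN1C, with 351 counts, and CDKN2D, with 708, more than the other members.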
